A study of Rattus norvegicus with 10 samples.

Results

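Gene expression was compared between rat A7r5 cells stably transfected with a cytoplasmic tail mutant of the bone morphogenetic protein receptor BMPR2 and A7r5 cells labelled as empty vector. The comparison takes the 2 arrays labelled CD mutant BMPR2 and the 2 arrays labelled empty vector, which are 4 of the 10 arrays of the series. The CD mutant carries 2579-2580delT, a deletion that the labels place in the cytoplasmic tail domain. The other constructs used beside them were wild-type human BMPR2 on 2 arrays and BMPR2 with T354G in the extracellular domain (ED mutant) on 2 arrays, and the empty vector arrays, titled as native expression, served as the common control. A further 2 arrays, labelled as a kinase domain mutant, were left out of the filter and the fit. All cultures were normoxic, at about 50% confluence in DMEM with 10% serum. The groups with a BMPR2 construct are titled as stably transfected. For the empty vector arrays the transfection label and the title differ, so whether those cells carried a stable transfection is not settled. An effect of transfection itself cannot be told apart from that of a construct. A7r5 is a line derived from embryonic rat aorta that is used as a model of vascular smooth muscle. Whether the replicate arrays stand for separate cultures, and whether a group is 1 clone or a pool of transfected cells, is not in the labels. The p-values therefore rest on the spread between arrays, and that spread may be technical.

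BMPR2 is a type II serine/threonine kinase receptor. On binding a bone morphogenetic protein it phosphorylates a type I receptor, which phosphorylates SMAD1 and its close relatives, and these enter the nucleus with SMAD4 and activate genes such as those of the inhibitors of differentiation (Id). The long cytoplasmic tail beyond the kinase domain is a feature of this receptor, and mutations in it, as in other domains, are found in heritable pulmonary arterial hypertension. In vascular smooth muscle the pathway is known for restraining growth and for keeping the contractile state.

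Values are log2 RMA summaries of Affymetrix probe sets, so a difference of 1 is a 2-fold difference. The 8 arrays of the fit were alike, with Pearson correlations across all probe sets of 0.992 to 0.996 and array medians of 5.32 to 5.36, while the kinase domain arrays correlated with them at only 0.71 to 0.719. The cells were checked against markers, without setting the level of one probe set against another's. Of 23 smooth muscle contractile genes on the array, 17 averaged above the filter level for dim probe sets (4.9) in the CD mutant and 16 with empty vector. Some were bright in both groups, such as Tpm1, at 11.68 in the CD mutant and 12.11 with empty vector, Cnn3, at 11.07 and 11.05, and Smtn, at 10.45 and 10.34. Of the genes that define differentiated smooth muscle, Acta2 averaged 6.2 in both groups, Myh11 6.74 in the CD mutant and 6.69 with empty vector, and Tagln 5.1 and 4.94, while Cnn1 (4.24 and 4.48) and Myocd (4.18 and 4.23) lay under the filter level. Of 13 epithelial markers 11 and 9 averaged above it, among them Krt18, at 11.29 in the CD mutant and 11.39 with empty vector, and Cdh1, at 9.67 and 9.24, while Epcam (3.69 and 3.74) and Cldn4 (3.47 and 3.33) lay under it. The mean of the smooth muscle list was 6.72 and 6.67 on the CD mutant arrays and 6.68 and 6.69 on the empty vector arrays, and that of the epithelial list 6.74 and 6.72 on the CD mutant arrays and 6.71 and 6.74 on the empty vector arrays. The filter was passed by 1 of 10 endothelial, 5 of 12 macrophage, 10 of 19 skeletal muscle and 8 of 14 fibroblast markers. The cells are called here by their line and construct. In RNA from a whole culture, fewer cells of a type and less RNA per cell cannot be told apart.

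At the threshold used, a small set of genes differed between the CD mutant and the empty vector cells, mostly by less than 2-fold. How many passed depended on the settings, such as 2 probe sets with only the 4 arrays compared and 538 with an intensity trend and robust variance. The count therefore does not give the number of genes that differ. The chemokine genes Ccl2 and Ccl20, the BMP target genes Id2 and Id3 and the urokinase receptor gene Plaur fell, and the inositol transporter gene Slc5a11, the phosphatase gene Adprm, the RNA-editing gene Adarb1 and the metallothionein gene Mt2A rose. Of 19534 probe sets tested in limma, 43 (0.22%) passed an adjusted p of 0.05, with 27 higher (0.138%) and 16 lower (0.0819%) in the CD mutant. They covered 22 named genes that rose and 15 that fell, with 4 and 1 probe sets that have no single gene name. The absolute log2 difference ran from 0.52 to 1.99 with a median of 0.73, and 3 probe sets exceeded 2-fold, 1 of them up (Slc5a11) and 2 down (Ccl2 and Ccl20). Over all tested probe sets the median difference was 0.002. Both CD mutant arrays lay above both empty vector arrays on 4073 of the 19534 probe sets and below them on 4129. Separate groups, as named for some genes below, are therefore common and are not evidence alone. An unadjusted p under 0.05 was reached by 2474 probe sets, where 0.05 of those tested is 977.

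The count depended on every one of the 4 arrays. Leaving out CD mutant replicate 1 left 4 probe sets past the threshold, leaving out CD mutant replicate 2 left 1, and leaving out empty vector replicates 1 and 2 left 1 and 3. Fitting only the 4 arrays compared left 2, Ccl2 and Ccl20. Where 1 array of a group was left, it was taken to vary like the other groups.

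**Figure D1:**
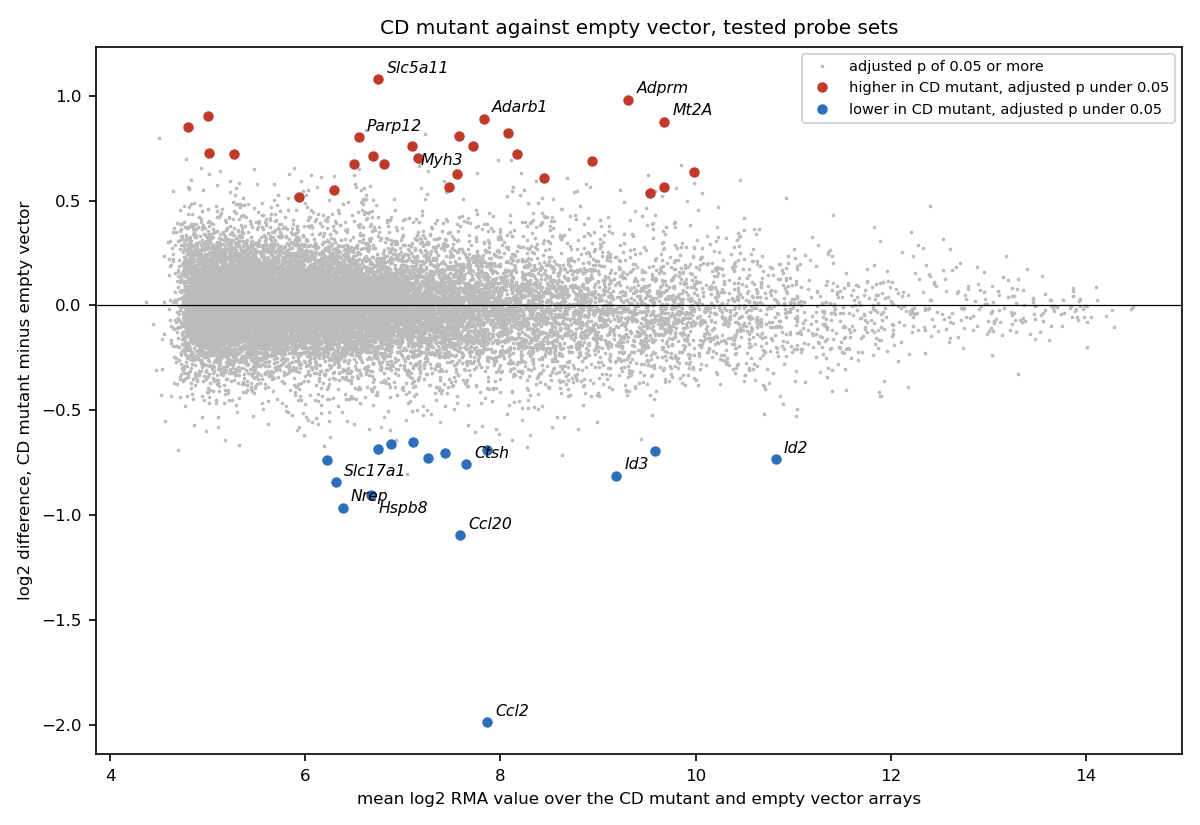
Each point is 1 of the 19534 tested probe sets, with the mean log2 RMA value over the CD mutant and empty vector arrays on the horizontal axis and the log2 difference, CD mutant minus empty vector, on the vertical axis. Red points are the 27 higher and blue points the 16 lower in the CD mutant at an adjusted p under 0.05; Ccl2 stands alone at -1.99, and the next lowest is Ccl20 at -1.10.

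Ccl2, the gene of a monocyte-attracting chemokine, showed the greatest difference of any tested probe set. Its probe set 1367973_at read 6.80 and 6.94 on the CD mutant arrays and 8.88 and 8.84 on the empty vector arrays. Both CD mutant arrays lay far below both empty vector arrays, by a mean log2 difference of -1.99 (SE 0.0907, 95% interval -2.19 to -1.78) or 3.96-fold, with an adjusted p of 2.8e-05 in limma. The wild-type arrays read 7.5 and 7.38 and the ED mutant arrays 7.48 and 7.49, so the 6 arrays with the CD mutant, wild-type or ED mutant construct were below the empty vector arrays, and the CD mutant arrays were lowest of the 8.

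Ccl20, the ligand of the chemokine receptor CCR6, read 7.01 and 7.07 in the CD mutant and 8.16 and 8.10 with empty vector. The groups did not overlap, and the CD mutant was lower by 1.10 (2.14-fold, SE 0.0907, adjusted p = 0.00315 in limma). On the wild-type arrays Ccl20 read 7.38 and 7.25, between the CD mutant and the empty vector, and on the ED mutant arrays 7.95 and 8.05, next to the empty vector. The promoter of Ccl20 is shown because chemokine genes are known targets of NF-kB. The 250 bases before its start in RefSeq (build GRCr8, chr9:91836909-91837158, plus strand) hold 4 matches, 3 of them overlapping, of the pattern searched for NF-kB-like sites, which is GGG followed after 5 bases of any kind by CC. The matches on either strand are in capitals.
Ccl20: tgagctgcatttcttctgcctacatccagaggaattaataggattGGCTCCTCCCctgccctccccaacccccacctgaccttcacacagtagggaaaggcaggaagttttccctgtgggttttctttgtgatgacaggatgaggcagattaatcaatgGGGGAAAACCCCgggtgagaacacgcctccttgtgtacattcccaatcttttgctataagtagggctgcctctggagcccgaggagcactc
The pattern occurs, on either strand, in 42.3% of 33469 promoters of the same length, so a match describes the letters and does not mark a bound site. No entry for Ccl2 was used.

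Other genes of the chemokine, cytokine and NF-kB list did not pass the test. Of 20 members tested, 0 were higher and 2 lower in the CD mutant, against 32 of 10904 genes (0.293%) over all genes, each taken by its brightest probe set, and the list's median difference was 0.013 against -0.009 for all genes. Nfkbia, the inhibitor of NF-kB that NF-kB itself induces, read 7.92 and 7.72 in the CD mutant and 8.16 and 8.02 with empty vector, a difference of -0.26 (adjusted p = 0.352 in limma). Ccl7, the neighbour in function of Ccl2 and named here after its values were seen, read 5.33 and 5.77 in the CD mutant and 5.83 and 5.61 with empty vector, where the arrays overlap. Plaur, the receptor that holds urokinase at the cell surface, read 9.21 and 9.26 in the CD mutant and 9.99 and 9.87 with empty vector, lower by 0.70 (adjusted p = 0.0275). Maff, a small MAF transcription factor, read 6.99 and 7.17 in the CD mutant and 7.85 and 7.71 with empty vector, also lower by 0.70 (adjusted p = 0.0356).

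**Figure D2:**
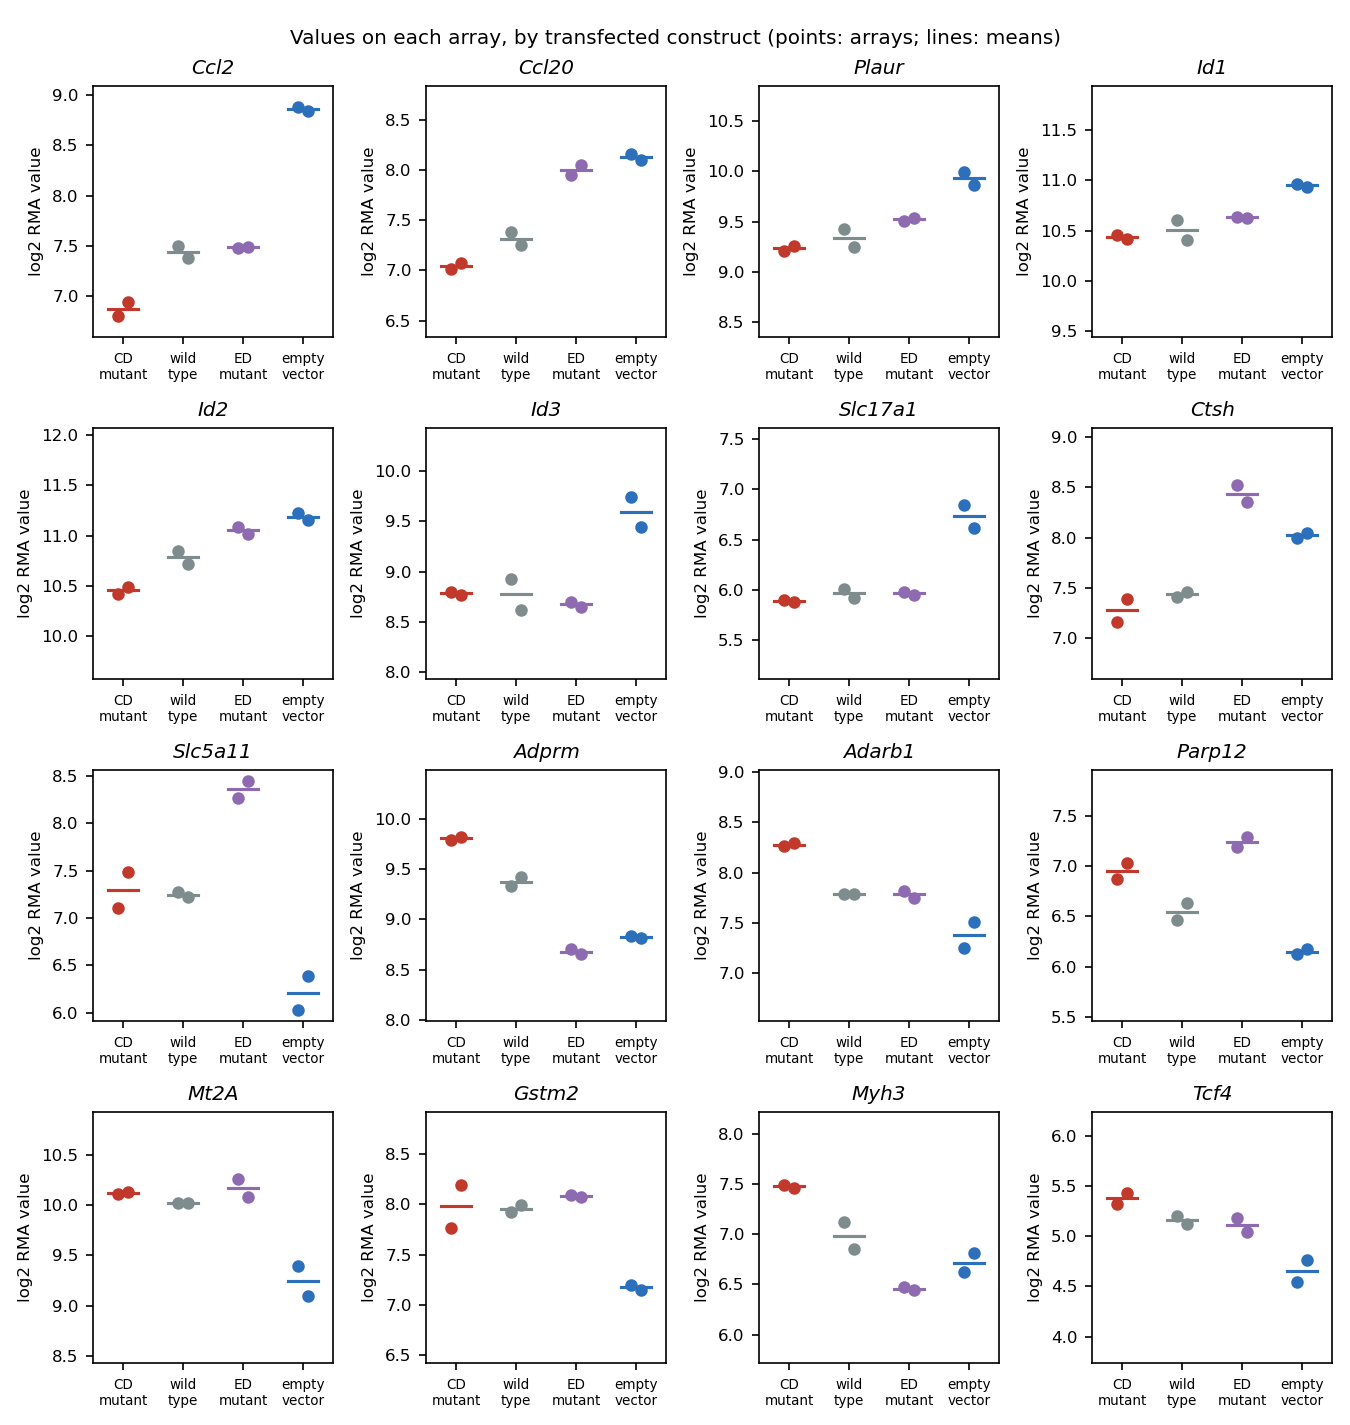
Points are the log2 RMA values of 16 genes on each array and lines are group means, with the 4 constructs in columns; each panel spans at least 2.5 log2 units, and the panels do not share a range. For Ccl2 the CD mutant arrays (6.80 and 6.94) are the lowest of the 8, while for Slc5a11 the ED mutant arrays (8.27 and 8.44) stand above the CD mutant arrays (7.10 and 7.48).

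The Id genes, which encode proteins that bind E-box transcription factors and keep them from DNA, are the best known targets of BMP signalling. Id2 read 10.42 and 10.49 on the CD mutant arrays and 11.22 and 11.15 on the empty vector arrays. The groups were separate, and the CD mutant was lower by 0.73 (1.66-fold, SE 0.0898, adjusted p = 0.0255 in limma), while a second probe set of Id2 gave -0.49 and missed the threshold (adjusted p = 0.0907). Id3 read 8.80 and 8.77 in the CD mutant and 9.74 and 9.45 with empty vector, lower by 0.81 (1.75-fold, adjusted p = 0.044). The empty vector arrays differed more from each other than the CD mutant arrays did. Id3 was lower in the other constructs too, at 8.93 and 8.62 in wild type and 8.70 and 8.65 in the ED mutant. Their differences from empty vector were -0.82 and -0.92 (adjusted p = 0.103 and 0.0103 in limma). For Id2 these differences were -0.40 and -0.13 (adjusted p = 0.214 and 0.53). Id1 read 10.46 and 10.42 in the CD mutant and 10.97 and 10.94 with empty vector, a difference of -0.52 that did not pass (adjusted p = 0.0746). For Id4 the difference was 0.04, with a 95% interval of -0.23 to 0.32. Tcf4, an E-box factor of the class that Id proteins bind, read 5.32 and 5.43 in the CD mutant and 4.54 and 4.76 with empty vector and was higher by 0.73 (adjusted p = 0.0332), with the empty vector mean under the filter level, so the size of that difference is not exact. The brighter probe set of Tcf4, at 8.23 in the CD mutant and 8.04 with empty vector, gave 0.19 and did not pass (adjusted p = 0.519).

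Across the BMP pathway the remaining genes did not pass. Of 14 BMP target genes tested, 0 were higher and 2 lower, against 32 of 10904 genes (0.293%) in either direction over all genes. Their median difference was -0.06 against -0.009 for all genes. Because lists were chosen with earlier results of these data known, enrichment was not tested. The inhibitory Smads, Smad6 and Smad7, and the decoy receptor Bambi, all named after their values were seen, differed by -0.09, -0.08 and -0.21. Of 14 BMP receptors and Smads, 0 passed in either direction, with a median of -0.05 and differences between -0.24 and 0.35, each gene by its brightest probe set. A further probe set of Smad4, the shared partner of the receptor-activated Smads, gave 0.365 (adjusted p = 0.126), and its brightest gave 0.11. Of 11 BMP ligands and antagonists 0 passed, with a median of 0.06. Rat Bmpr2 had 2 probe sets, and since they are annotated to the rat gene they do not check the human transgene. One (1376843_at) read 7.21 and 6.85 in the CD mutant and 6.66 and 6.70 with empty vector, a difference of 0.35 (adjusted p = 0.343), and the other (1394667_at) read 5.45 and 5.39 in the CD mutant and 5.05 and 5.29 with empty vector, a difference of 0.25 (adjusted p = 0.372). Of 12 targets of the related TGF-beta pathway 0 passed, with a median of -0.08. Among these Inhba, the beta A subunit of activin, came closest, at 8.29 and 8.26 in the CD mutant and 8.97 and 9.0 with empty vector, a difference of -0.71 (adjusted p = 0.0524).

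The promoters of Id2 (chr6:47470996-47471245, minus strand) and Id3 (chr5:153656041-153656290, plus strand) were searched for GGCGCC, a GC-rich Smad site, and for CAGAC, the core of the Smad box. Neither motif was found in either window of 250 bases, on either strand. This says only that these letters are not there, and BMP-responsive elements of Id genes can lie farther upstream. GGCGCC occurs in 8.69% and CAGAC in 42.9% of all promoters in the table.

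Among the genes that rose, Mt2A encodes a metallothionein, a small protein that binds zinc and other metals. It read 10.11 and 10.13 on the CD mutant arrays and 9.39 and 9.09 on the empty vector arrays. The groups were separate, with a difference of 0.88 (1.83-fold, SE 0.113, adjusted p = 0.0268 in limma). Its promoter is shown for the metal response elements, the sites of the zinc-sensing factor MTF1, for which metallothionein promoters are known. The pattern searched for such elements was TGCNCNC, where N is any base. In the 250 bases before its start in RefSeq (build GRCr8, chr19:10838709-10838958, minus strand) this pattern was matched 5 times on either strand, in capitals.
Mt2A: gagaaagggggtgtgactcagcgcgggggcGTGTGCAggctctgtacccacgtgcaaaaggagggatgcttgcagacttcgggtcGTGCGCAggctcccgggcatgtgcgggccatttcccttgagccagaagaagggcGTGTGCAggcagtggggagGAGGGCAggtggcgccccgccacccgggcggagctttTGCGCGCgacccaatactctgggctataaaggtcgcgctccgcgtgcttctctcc
The pattern occurs in 43.4% of all promoters, so a match describes the letters and does not mark a working element. The other metallothionein gene Mt1, named after its values were seen, did not move with it, at 6.26 and 6.30 in the CD mutant and 6.43 and 6.28 with empty vector, a difference of -0.08. Of 13 metallothionein and NRF2 genes tested, 1 was higher and 0 lower, against 0.293% of all genes in either direction, with a median of 0.05. Gpx1, a glutathione peroxidase, differed by -0.40 (adjusted p = 0.132) and Sod2, the mitochondrial superoxide dismutase, by 0.28 (adjusted p = 0.216). Gstm2, a mu-class glutathione S-transferase, read 7.77 and 8.19 in the CD mutant and 7.20 and 7.15 with empty vector, higher by 0.81 (adjusted p = 0.0458). Metallothioneins and mu-class transferases are families of similar genes, and whether the probes bind several members was not tested.

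Motif matches over the changed genes were also counted as a description. Of 37 named genes that changed, 30 had a promoter in the table. The NF-kB-like pattern was found in 22 of them (73.3%, against 42.3% of all promoters), TGCNCNC in 19 (63.3%, against 43.4%), CAGAC in 12 (40%, against 42.9%), GGCGCC in 4 (13.3%, against 8.69%) and the AP-1 site TGANTCA in 4 (13.3%, against 6.34%). These shares were not tested, and promoters were not matched on base composition.

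Slc5a11, a sodium-coupled transporter of inositol, read 7.10 and 7.48 in the CD mutant and 6.03 and 6.39 with empty vector. This was the greatest rise, with a log2 difference of 1.08 (2.11-fold, SE 0.147, adjusted p = 0.0275 in limma), although the arrays within each group were spread, with an SD of 0.263 in the CD mutant and 0.252 with empty vector (n = 2 each). Slc17a1, a sodium-phosphate transporter known from kidney, read 5.90 and 5.88 in the CD mutant and 6.84 and 6.62 with empty vector, lower by 0.84 (1.79-fold, adjusted p = 0.0192). Both are in a list of solute carriers of epithelium, in which 1 of 11 members tested was higher and 1 lower. Over all genes 0.293% passed in either direction, and the list's median was -0.03. Slc16a1, a monocarboxylate transporter, had probe sets that disagreed, at 0.315 (adjusted p = 0.183) and -0.328 for the brighter (adjusted p = 0.298). Slc3a1, a subunit of an amino acid transporter, differed by 0.26 (adjusted p = 0.285). Outside that list, Slc22a18, a transporter of the organic cation family, was higher by 0.71 (adjusted p = 0.0374), and Slc4a7, a sodium bicarbonate cotransporter, by 0.69 (adjusted p = 0.0484).

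Adprm, a manganese-dependent phosphatase that cleaves ADP-ribose, read 9.79 and 9.82 in the CD mutant and 8.83 and 8.81 with empty vector. The arrays within each group nearly coincided, with SDs of 0.02 and 0.0195, and the difference was 0.98 (1.97-fold, SE 0.0836, adjusted p = 0.00315 in limma). A second, dimmer probe set gave 0.85 (adjusted p = 0.0437). Its empty vector (4.37) and ED mutant (4.32) means lay under the filter level, which it passed through CD mutant and wild-type arrays. The size of that second difference is therefore not exact. Adarb1, which edits adenosine to inosine in double-stranded RNA, read 8.26 and 8.29 in the CD mutant and 7.25 and 7.51 with empty vector, higher by 0.89 (1.85-fold, adjusted p = 0.0192), while its other probe sets gave 0.25 and 0.14 (adjusted p = 0.293 and 0.618). Parp12, an interferon-inducible ADP-ribosyltransferase, read 6.87 and 7.03 in the CD mutant and 6.12 and 6.17 with empty vector, higher by 0.80 (1.75-fold, adjusted p = 0.0255). Parp12 was the only 1 of 16 interferon response genes tested that passed, against 0.293% of all genes. The list's median was 0.10, with 13 of the 16 above 0, against 5181 of 10904 over all genes. In the same list the immunoproteasome subunit gene Psmb9 differed by 0.42 (adjusted p = 0.148) and Parp9 by 0.26 (adjusted p = 0.314). Clp1, an RNA kinase of tRNA splicing and mRNA 3' end formation, was lower by 0.65 (adjusted p = 0.0268).

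The other genes past the threshold are given by size. Foxn3, a forkhead repressor, was higher by 0.70 (adjusted p = 0.0268 in limma) and Depp1, a target of FOXO factors, by 0.67 (adjusted p = 0.0268). The other Foxn3 probe sets gave 0.33, 0.26 and 0.09 (adjusted p = 0.17, 0.297 and 0.859). Ypel2 was higher by 0.67 (adjusted p = 0.0332) and Chst1, a sulfotransferase of keratan sulfate, by 0.72 (adjusted p = 0.0268). The empty vector mean of Chst1 (4.91) lay next to the filter level, so the size of its difference is not exact. The remaining named genes that rose, between 0.53 and 0.63, were App, Sema6d, Hbp1, Foxo3, Hsd17b8, Gramd2b and Igf2bp2, which lie beyond the 15 chosen by size. Foxo3 encodes a FOXO factor, and its probe sets disagreed, at 0.57 for the one that passed and -0.06 for the other. It was the exception among 13 genes with several tested probe sets, of which 12 had all of them on the same side of 0. Only 1, Adprm, had all of them past the threshold, the dimmer with its empty vector mean under the filter level. Among the genes that fell, Nrep read 5.81 and 5.99 in the CD mutant and 6.77 and 6.95 with empty vector, lower by 0.96 (1.95-fold, adjusted p = 0.0255). The small heat shock protein gene Hspb8 was lower by 0.90 (adjusted p = 0.0258), the lysosomal protease gene Ctsh by 0.76 (adjusted p = 0.0278), Greb1l by 0.74 (adjusted p = 0.0268) and the desmosomal p53 target Perp by 0.73 (adjusted p = 0.0285). Gpr137b, a membrane protein of lysosomes, was lower by 0.69 (adjusted p = 0.0374) and Abhd2, a serine hydrolase, by 0.66 (adjusted p = 0.0268). The second probe sets of Gpr137b, Perp, Hspb8 and Clp1 gave -0.12, -0.15, -0.55 and -0.18 and did not pass (adjusted p = 0.666, 0.772, 0.069 and 0.45). Of the probe sets with no gene name, 1398487_at was higher by 0.90, with its empty vector mean (4.55) under the filter level. The difference was 0.76 for 1380552_at, and 1395620_at was lower by 0.69.

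Among muscle genes, 1 skeletal muscle gene and 0 smooth muscle contractile genes passed, against 0.293% of all genes. Myh3, the embryonic heavy chain of skeletal myosin, read 7.49 and 7.46 in the CD mutant and 6.62 and 6.81 with empty vector, higher by 0.76 (1.69-fold, adjusted p = 0.0332 in limma). Acta1, skeletal actin, read 6.99 and 7.10 in the CD mutant and 6.42 and 5.99 with empty vector, a difference of 0.84 that did not pass (adjusted p = 0.0902). Of 10 skeletal muscle genes tested, 1 was higher and 0 lower, with a median of 0.02, and Myog, which drives skeletal muscle differentiation, averaged 5.51 in the CD mutant and 5.5 with empty vector. Of 18 smooth muscle contractile genes, 0 passed in either direction, with a median of 0.05 and differences between -0.43 and 0.24. Tpm1, a tropomyosin, was the member with the lowest p, at 11.69 and 11.67 in the CD mutant and 12.15 and 12.08 with empty vector, a difference of -0.43 (adjusted p = 0.132).

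Counts in the other lists relevant to a vascular cell stand against 0.293% of all genes, a share at which most lists of this size would hold 0. Of 32 extracellular matrix genes 0 passed, with a median of -0.02. Of 21 junction and adhesion genes 0 passed, with a median of -0.04, and Gja1, which encodes connexin 43, differed by -0.54 (adjusted p = 0.0746). Of 17 vasoactive peptides and receptors 0 passed, with a median of -0.06, and Apln, which encodes the peptide apelin, read 6.59 and 6.40 in the CD mutant and 6.16 and 5.83 with empty vector, a difference of 0.50 (adjusted p = 0.139). Of 13 ion channels of smooth muscle 0 passed, with a median of -0.05. Of 19 cell cycle genes 0 passed, with a median of -0.08, and the mitotic cyclin gene Ccnb1 differed by -0.59 (adjusted p = 0.0746). Of 18 p53 and growth arrest genes 1 was higher (Depp1) and 1 lower (Perp), with a median of -0.04. Of 22 immediate early genes 0 passed, with a median of -0.003, and Egr1 differed by 0.50 (adjusted p = 0.114).

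In each list of metabolism and protein handling at most 1 member passed, against 0.293% of all genes. The highest list median was that of 17 hypoxia and glycolysis genes, at 0.18, with 12 of them above 0 and 0 past the threshold. Over all genes, 5181 of 10904 lay above 0 and 5723 below. Bnip3, a mitophagy receptor induced in hypoxia, read 6.86 and 6.74 in the CD mutant and 6.25 and 6.22 with empty vector, a difference of 0.57 (adjusted p = 0.0635), and Pfkl, a phosphofructokinase subunit of glycolysis, differed by 0.49 (adjusted p = 0.0746). The lowest median was that of 11 S100 proteins and galectins, at -0.20, with 10 of them below 0 and 0 past the threshold. S100a4, a calcium-binding protein, read 8.10 and 8.11 in the CD mutant and 8.68 and 8.5 with empty vector, a difference of -0.49 (adjusted p = 0.0896). Of 19 unfolded protein response genes 0 passed, with a median of -0.11. Of 16 cholesterol synthesis genes 0 passed, with a median of -0.09, and the isomerase gene Idi1 differed by -0.58 (adjusted p = 0.0896). Of 12 lysosomal genes 1 was lower (Ctsh) and 0 higher, with a median of -0.01. Among marker lists of other cell types, 0 of 11 epithelial, 0 of 1 endothelial, 0 of 5 macrophage and 0 of 8 fibroblast genes passed, with medians of -0.07, -0.03, -0.06 and 0.07. In the epithelial list Krt19 differed by -0.43 (adjusted p = 0.0975), Spint1, a membrane-bound protease inhibitor, by 0.57 (adjusted p = 0.118) and Cdh1 by 0.43 (adjusted p = 0.139).

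**Figure D3:**
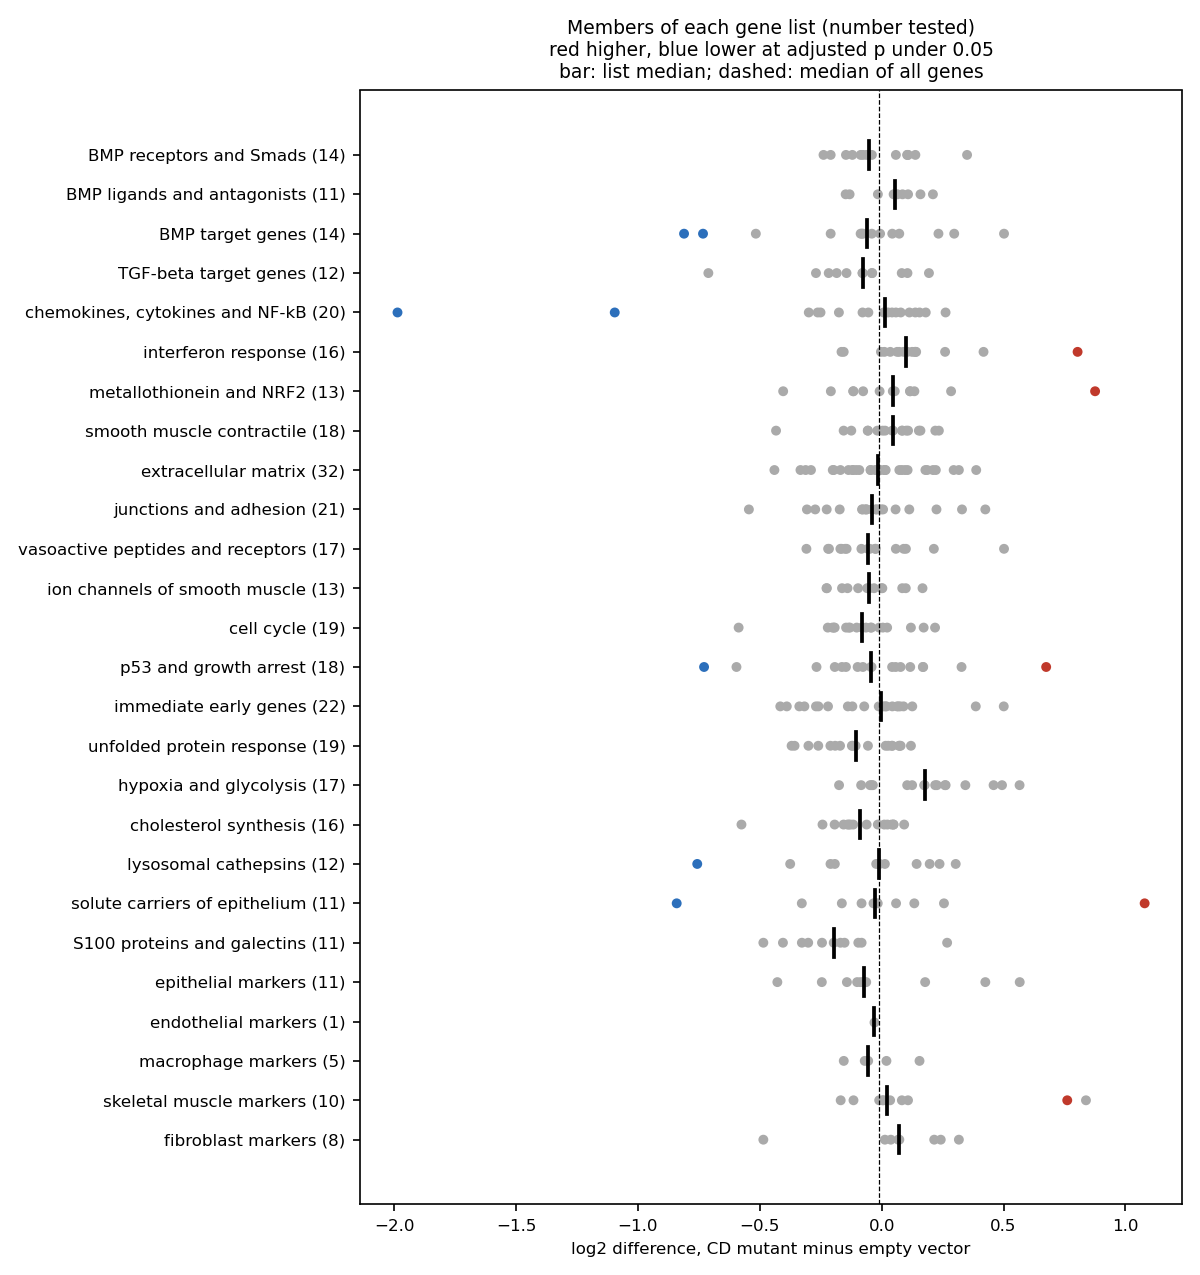
Each row is 1 of the 26 gene lists with the number of members tested, each point a member's log2 difference, CD mutant minus empty vector; red members were higher and blue members lower at an adjusted p under 0.05. Bars are list medians, which run from -0.20 (S100 proteins and galectins) to 0.18 (hypoxia and glycolysis), and the dashed line is the median of all genes at -0.009.

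The same genes were then read on the arrays of the other constructs. All contrasts with empty vector use the same 2 empty vector arrays, so their values stand side by side and no overlap is drawn from them. The 43 probe sets were chosen with the CD mutant arrays, which the contrasts with wild type and with the ED mutant also use.

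Against wild-type BMPR2 the CD mutant gave 0 of 19534 probe sets past the threshold in limma (0%), with a lowest adjusted p of 0.934 and 1019 unadjusted p-values under 0.05. For the 43 probe sets the greatest difference from wild type was 0.57 in size, and the 95% intervals, not adjusted for the number of probe sets, lay between -0.77 and 0.74. A 2-fold difference from wild type lies outside all 43 intervals, while some smaller differences lie inside some of them. The interval for Ccl2 was -0.77 to -0.37 and for Myh3 0.25 to 0.74. For Id3 it was -0.27 to 0.29, for Mt2A -0.16 to 0.35 and for Slc5a11 -0.29 to 0.37. The differences from empty vector in the CD mutant and in wild type were -1.99 and -1.42 for Ccl2, -1.10 and -0.82 for Ccl20, and 1.08 and 1.03 for Slc5a11.

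Against the ED mutant 145 probe sets passed (0.742%), with 56 higher and 89 lower in the CD mutant. Ctsh read 7.16 and 7.39 on the CD mutant arrays, 8.52 and 8.35 on the ED mutant arrays and 8.0 and 8.05 with empty vector. The ED mutant lay above the empty vector and the CD mutant below it. The ED mutant's difference from empty vector, 0.41, did not pass (adjusted p = 0.0908 in limma). The difference between the mutants was -1.16 (adjusted p = 0.00207 in limma). Adprm read 8.70 and 8.65 in the ED mutant, beneath both empty vector arrays, and was higher in the CD mutant by 1.13 (adjusted p = 0.00132). The ED mutant's own difference from empty vector, -0.15, did not pass (adjusted p = 0.435). Myh3 read 6.47 and 6.44 in the ED mutant and was higher in the CD mutant by 1.02 (adjusted p = 0.00433), and Chst1 by 0.79 (adjusted p = 0.00604). The ED mutant mean of Chst1 (4.84) lay under the filter level, so the size of that difference is not exact. Slc5a11 was lower in the CD mutant than in the ED mutant by 1.07 (adjusted p = 0.0134), Ccl20 by 0.96 (adjusted p = 0.00239), Nrep by 0.94 (adjusted p = 0.00771), Ccl2 by 0.61 (adjusted p = 0.0181), Id2 by 0.60 (adjusted p = 0.0184) and Abhd2 by 0.56 (adjusted p = 0.0224). For Id3 and Mt2A the differences between the mutants were 0.11 and -0.05 (adjusted p = 0.76 and 0.887).

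**Figure D4:**
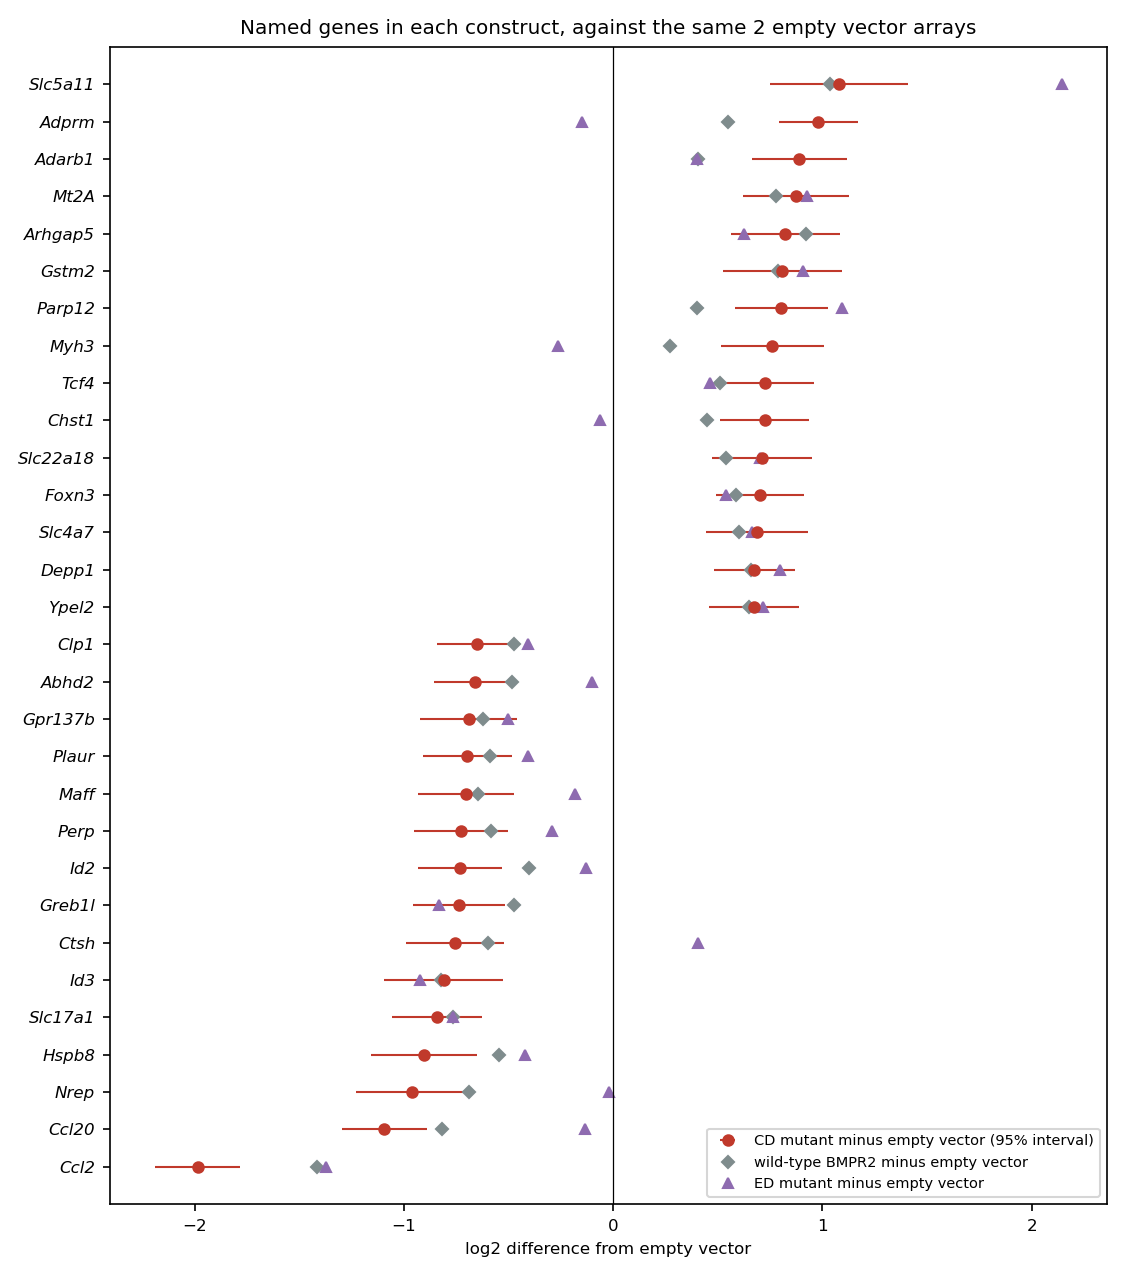
Rows are the 30 genes named by size of difference; red circles with 95% intervals give the log2 difference of the CD mutant from empty vector, grey diamonds that of wild-type BMPR2 and purple triangles that of the ED mutant, all against the same 2 empty vector arrays. For Adprm, Myh3, Chst1 and Ctsh the ED mutant lies on the opposite side of 0 from the CD mutant, at -0.15, -0.26, -0.06 and 0.41. None of these ED mutant differences from empty vector passed (adjusted p = 0.435, 0.286, 0.806 and 0.0908 in limma). For Slc5a11 the ED mutant lies at 2.14 against 1.08 for the CD mutant.

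Control probe sets also differed between the arrays compared. Poly-A control transcripts, which are added to the RNA before labelling in the standard Affymetrix protocol, averaged 8.56 and 8.62 over 24 probe sets on the CD mutant arrays, 7.49 and 8.34 on the wild-type arrays, 8.24 and 8.29 on the ED mutant arrays and 8.02 and 7.76 on the empty vector arrays. The CD mutant arrays were the highest of the 8, by 0.697 on average over the empty vector arrays, and 2 arrays against 2 cannot reach an exact permutation p below 0.333. Hybridization controls, which are added after labelling, averaged 11.3 and 11.35 over 18 probe sets in the CD mutant and 11.28 and 11.16 with empty vector. The 3' minus 5' difference of beta-actin was higher by 0.102 in the CD mutant and that of GAPDH by 0.008. The part of these differences in the gene results was not tested.

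**Figure D5:**
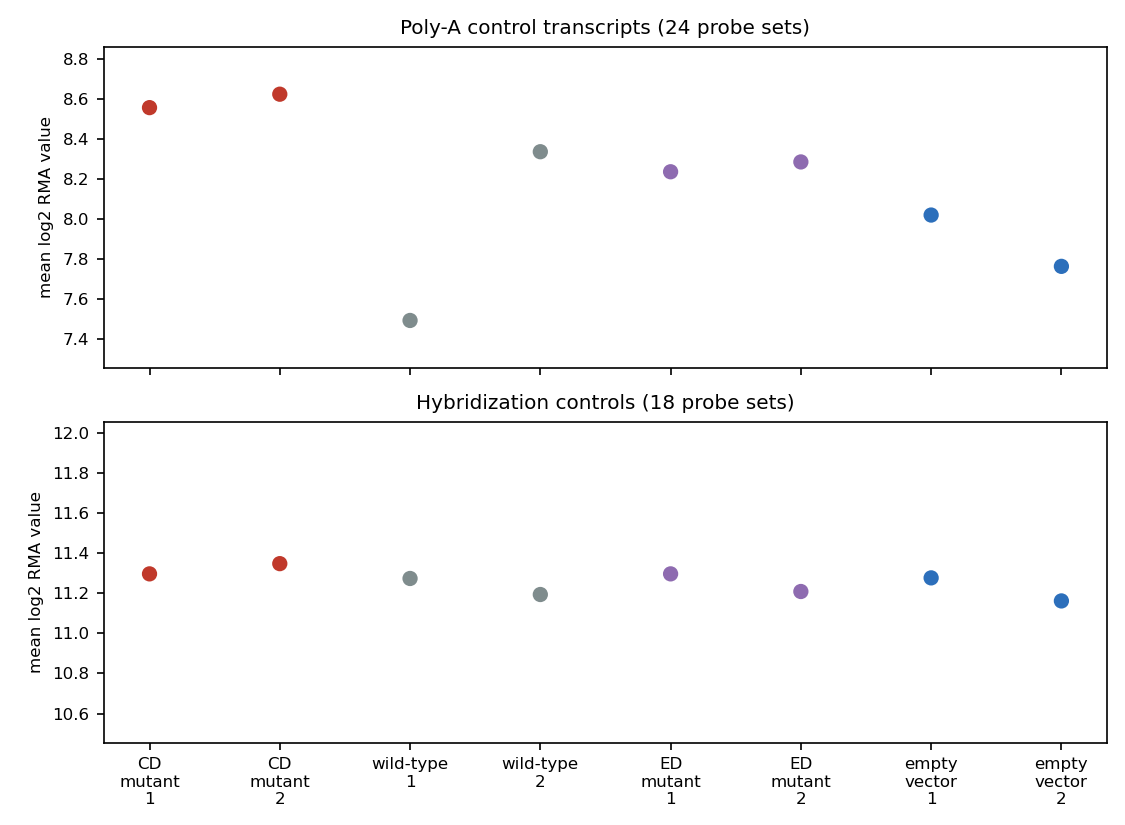
Points are the mean log2 RMA values of the poly-A controls (top, 24 probe sets) and the hybridization controls (bottom, 18 probe sets) on each of the 8 arrays, coloured by construct; both panels span the same 1.6 log2 units. The CD mutant arrays are the highest for the poly-A controls (8.56 and 8.62), against 8.02 and 7.76 for the empty vector arrays.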

How the data were processed

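RNA of A7r5 cells was hybridised to Affymetrix rat arrays of 31099 probe sets, per the labels. The authors deposited log2 values, which per the submitters' processing notes came from RMA. Its version is not given in the sources used here, nor is it stated whether RMA was run on the 10 arrays jointly. No scanner files were used, so RMA was not run again. The number of arrays limits the precision. The 57 control probe sets were left out, and a probe set was tested where at least 2 of the 8 arrays reached log2 4.9, the 40th percentile of all values on them, which kept 19534. Of 3 called probe sets the empty vector mean lay below that level.

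In R 4.3.3, limma 3.58.1 fitted means of 4 constructs over 8 arrays, with Benjamini-Hochberg adjustment over all tested probe sets. Platform annotation gave 1 gene for 20826 probe sets, several for 436 and none for 9780, and 20758 symbols were updated through Entrez identifiers. Genes were named by rule: Bmpr2, up to 15 named genes per direction past the threshold by size, and up to 3 members of each of 26 lists by p. For Nfkbia and Slc3a1 the rank by p was among the brightest probe sets of the genes. Other genes, such as Id4, Myog and those of the marker check, were named outside the rule, and not all are marked where they appear. Lists and members were chosen with earlier results of these data known. The fit was tested on simulated data. Promoters came from RefSeq (GRCr8), 250 bases upstream. Alternatives were other filters, array sets, normalizations, variance models, a replicate block, leaving out each array, a stricter threshold and genes in place of probe sets.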

Additional observations from a re-analysis of the deposited data

Results flagged for a closer look

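Poly-A control transcripts lie outside the gene comparison, and their mean was higher on the CD mutant arrays (8.56 and 8.62) than on the empty vector arrays (8.02 and 7.76), a difference of 0.697 on the log2 scale over 24 probe sets. It was marked because a signal in control data differed between the groups compared. Its part in the gene results was not tested.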

How the results depend on the processing

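The 27 higher and 16 lower probe sets became 4 and 4 with no filter, 62 and 63 with the filter at the 60th percentile, 0 and 2 with only the 4 arrays compared, 12 and 13 with all 10 arrays, 235 and 303 with an intensity trend and robust variance, and 1 and 2 at an adjusted p under 0.01. With the replicate number as a block they were 7 and 5, although deviations of CD mutant and empty vector arrays with the same number correlated at -0.036 and the numbers were not taken to pair the arrays. Leaving out 1 array gave 0 to 2 higher and 1 to 2 lower. Quantile normalization (32 and 20), median centring (24 and 19) and genes in place of probe sets (31 and 19) stayed within 1.5 times. The cause of these shifts was not tested, beyond the fewer arrays or probe sets that some settings hold. Ccl2 passed in 12 of 12 refits and Ccl20 in 10 of 12. Of 91 genes examined, 2 changed sign when 1 array was left out. Esam, at -0.03 in the fit reported, ran from -0.103 to 0.04, and was above 0 without empty vector replicate 2 or without CD mutant replicate 2 (0.028). Cd14, at -0.06, ran from -0.2 to 0.089, and was above 0 without empty vector replicate 2 (0.028) or without CD mutant replicate 1. The other genes kept their direction. With a gene's tested probe sets averaged, 21 of 26 list medians moved by less than the spread between arrays, and those of extracellular matrix (0.012), ion channels (-0.001), p53 (-0.059), cholesterol synthesis (-0.046) and cathepsins (-0.036) moved by more. With 2 arrays a group and RMA values alone, small differences of dim genes could be missed.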
